A study of Mus musculus with 2 samples.

Results

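The platelet-derived growth factor (PDGF) family was followed through 2 single-cell libraries of the mouse gut wall as 6 genes: the 2 receptors Pdgfra and Pdgfrb and the 4 ligands Pdgfa, Pdgfb, Pdgfc and Pdgfd. The members were chosen by name, as the receptors and ligands of the family, and all 6 were among the 16098 genes listed for both libraries (16381 for the colon, 18262 for the small intestine). The libraries were 1 of colon and 1 of small intestine from healthy, untreated mice, made from live cells sorted as negative for CD45 (immune cells) and CD326, also called EpCAM (epithelial cells). Epithelium was first removed in 5 mM EDTA. An enzyme mix of collagenase and dispase then freed the cells, which took 60 minutes for colon and 45 minutes for small intestine. A 10x Genomics droplet system, which reads the 3' end of each RNA, received about 16000 cells of each tissue. The number, age, sex and strain of the mice are not given in the sources used here, and tissue, digestion time and library cannot be told apart. Each tissue has 1 library, so replicates are lacking, no p-value is given, and every interval is a 95% interval for counting error only.

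Levels are given as CPM, the counts of a gene per 1000000 counts of all genes in the cells of a label, where 1 count is 1 unique molecular identifier (UMI) and stands for 1 captured RNA molecule. The cells carry the authors' labels: 3 kinds of fibroblast (CD81- FBs, CD81+ Trophocytes and SEMFs), LECs with lymphatic endothelial markers, BECs with blood endothelial markers, and SMCs with smooth muscle markers. The deposited name of the SEMFs carries the prefix PDGFRa-hi or PDGFRahi, so the order of Pdgfra among the fibroblasts is a description and not a finding. Capture differs between genes, so CPM values are compared across labels and libraries for 1 gene at a time.

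PDGFs are secreted dimers that act on a pair of related receptor tyrosine kinases. PDGF-A and PDGF-C act mainly through the alpha receptor, the product of Pdgfra, PDGF-D acts mainly through the beta receptor, and PDGF-B can engage both. PDGF-C and PDGF-D are secreted in a latent form and are activated by proteases that remove an inhibitory domain. In the gut, Pdgfra marks fibroblasts in general and, at high level, the cells under the epithelium, whereas Pdgfrb marks fibroblasts and the pericytes that coat small vessels. PDGF-B from blood endothelium is known for recruiting those pericytes.

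In the mm10 build, the GENCODE annotation places Pdgfra at chr5:75152292-75198215 on the plus strand and Pdgfa at chr5:138976014-138997370 on the minus strand. Pdgfb lies at chr15:79995874-80014977 on the minus strand, Pdgfc at chr3:81036416-81214040 and Pdgfd at chr9:6168584-6378850, both on the plus strand. Upstream sequence from RefSeq (GRCm38.p6) was matched for 4 of the 6 members. It is shown for the 3 matched members on which most of the results turn, as the 250 bases before the RefSeq start on the plus strand: chr5:75152001-75152250, chr3:81036166-81036415 and chr9:6168236-6168485 in that order. Capitals mark a match to any of 5 short motifs searched on both strands.
Pdgfra: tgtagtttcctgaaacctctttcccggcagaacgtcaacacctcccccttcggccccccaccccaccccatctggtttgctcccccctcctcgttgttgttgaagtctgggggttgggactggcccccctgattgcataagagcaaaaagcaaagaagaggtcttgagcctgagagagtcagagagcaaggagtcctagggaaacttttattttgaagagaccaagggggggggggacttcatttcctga
Pdgfc: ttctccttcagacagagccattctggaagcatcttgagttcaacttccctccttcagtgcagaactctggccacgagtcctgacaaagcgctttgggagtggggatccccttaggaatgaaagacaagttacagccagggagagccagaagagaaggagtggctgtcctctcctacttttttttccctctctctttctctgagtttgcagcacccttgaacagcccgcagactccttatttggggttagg
Pdgfd: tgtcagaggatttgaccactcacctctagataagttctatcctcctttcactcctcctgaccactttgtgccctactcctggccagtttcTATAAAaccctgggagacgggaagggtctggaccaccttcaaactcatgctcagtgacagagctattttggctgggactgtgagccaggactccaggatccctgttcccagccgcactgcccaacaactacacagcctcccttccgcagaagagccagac
The motifs were the GC box GGGCGG, the TATA box TATAAA, the CCAAT box CCAAT, the GLI site GACCACCCA and the forkhead site TGTTTAC. In these 3 windows the 1 match was the TATAAA of Pdgfd, a motif held by 12.4% of 32851 windows of the same length. The 2 windows matched for Pdgfa, which are not shown, held GGGCGG 1 and 2 times. That motif was held by 32.7% of all windows, CCAAT by 33.9%, TGTTTAC by 3.17% and GACCACCCA by 0.225%. The libraries measured RNA and not promoter use, so the windows show where transcription of these genes is annotated to start and nothing more.

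The colon library held 6018 cells with 40684070 UMIs (median 6598 per cell), and the small intestine library 9359 cells with 58134526 UMIs (median 5943). The libraries shared 21 cell barcodes. Among colon fibroblasts, 1637 held Y-linked and no Xist UMIs and 2541 the reverse, so the colon library held RNA of both sexes and its values run over both. The small intestine library was not split in this way, so ratios between the tissues are not matched for sex. Markers were highest in their own label for 7 of 7 SEMF genes, 6 of 6 smooth muscle genes, 6 of 6 lymphatic genes and 4 of 5 trophocyte genes in both libraries, and for 6 of 6 (colon) and 4 of 6 (small intestine) blood endothelial genes. For the CD81- FBs it held for 2 of 4 genes in the colon and 0 of 4 in the small intestine, where the SMC label had the higher summed level of these 4 markers (12047 against 10134 CPM). RNA of fibroblast matrix genes was read in the other labels, and its source was not tested. Over 6 fibroblast matrix genes (Dcn, Lum, Col1a1, Col1a2, Col3a1, Dpt), LECs held 8.65% to 11.5% of the fibroblast level in the colon and 2.29% to 2.67% in the small intestine. BECs held 16.8% to 28.7% in the colon and 1.11% to 1.62% in the small intestine. SMCs held 17.6% to 73.3% in the colon and 27.2% to 58.1% in the small intestine.

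Pdgfra, the alpha receptor, was read in all 3 fibroblast labels of both libraries and was highest in the SEMFs. In the colon its level was 257 CPM in CD81- FBs (250 to 263), 330 CPM in CD81+ Trophocytes (316 to 345) and 1137 CPM in SEMFs (1113 to 1162). In the small intestinal library the same labels stood at 341 CPM (333 to 349), 376 CPM (366 to 386) and 2778 CPM (2738 to 2819). The order of the 3 labels was the same in both libraries, with no overlap of the counting intervals. SEMFs stood 4.43-fold above the CD81- FBs in the colon (log2 ratio 2.15, interval 2.10 to 2.19) and 8.15-fold above them in the small intestine (3.03, interval 2.99 to 3.07). SEMFs were 1105 of 5611 colon fibroblasts and gave 49.7% of all Pdgfra UMIs of the colon library, against 1109 of 5845 and 58.0% in the small intestine.

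**Figure D1:**
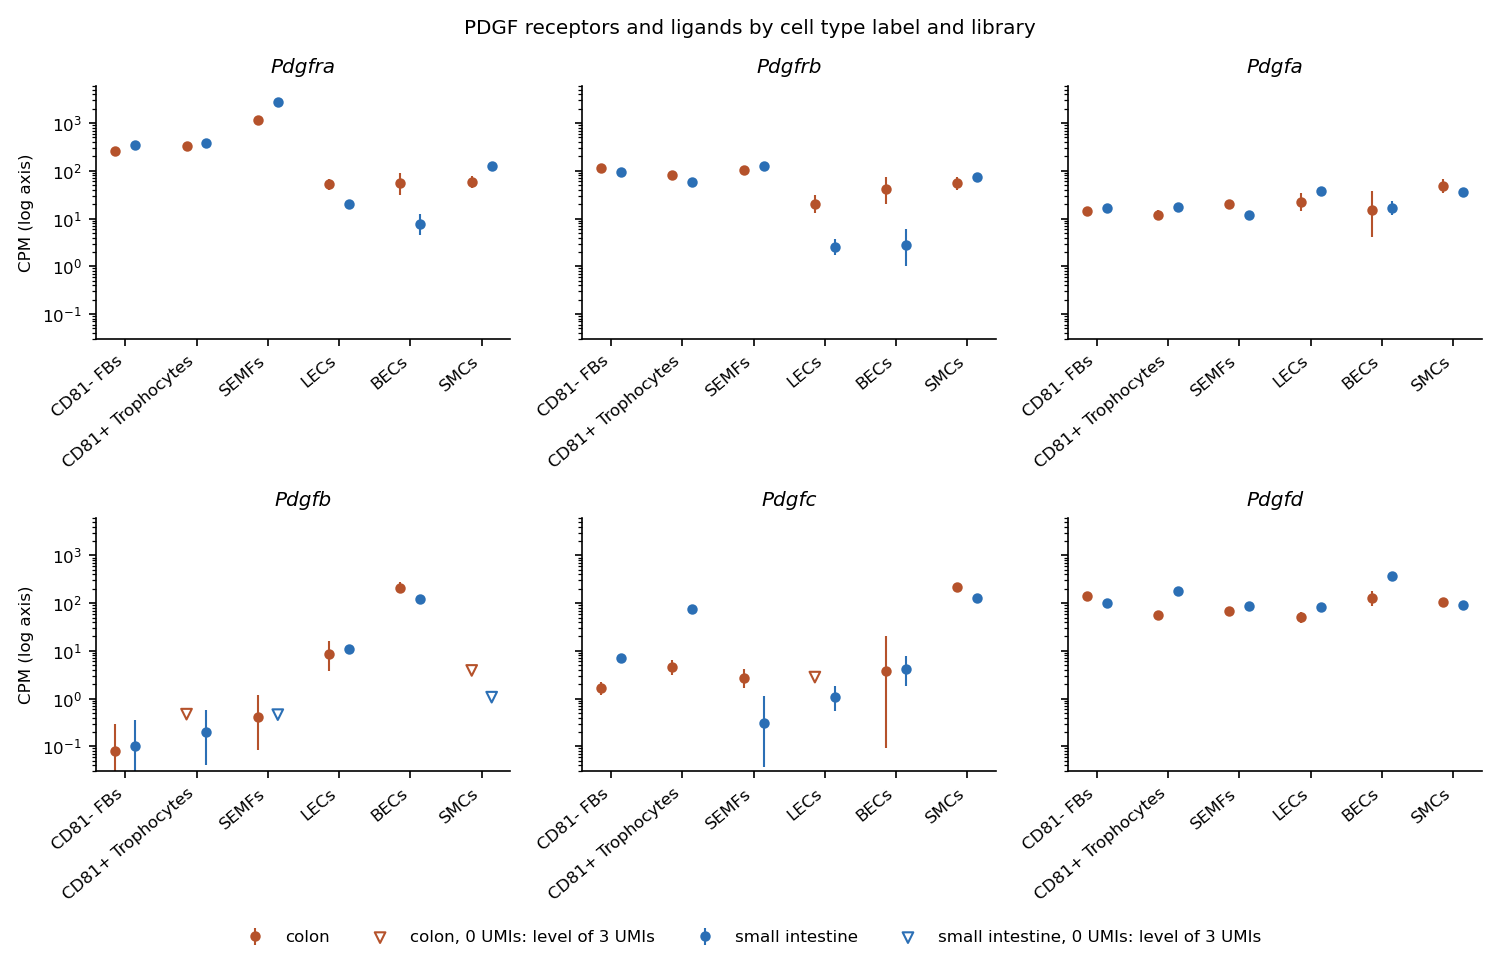
Level of each member in 6 cell type labels. Points are CPM on a log axis for the colon (brown) and small intestine (blue) library, bars are exact Poisson 95% intervals for counting error, and open triangles mark labels with 0 UMIs, drawn at the level of 3 UMIs. Pdgfra is highest in SEMFs, Pdgfb in BECs and Pdgfc in SMCs, and Pdgfc in CD81+ Trophocytes stands at 4.55 CPM (colon) and 75.9 CPM (small intestine).

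Counted cell by cell, the fibroblast labels overlapped in Pdgfra in both libraries, and overlapped less in the small intestine. The median colon cell held 1 Pdgfra UMI among CD81- FBs, 2 among CD81+ Trophocytes and 7 among SEMFs. The small intestinal medians were 2, 3 and 15. Cells with 10 or more Pdgfra UMIs were 6 of 3631 colon CD81- FBs (0.165%), 13 of 875 CD81+ Trophocytes (1.49%) and 321 of 1105 SEMFs (29.1%). The small intestinal counts were 25 of 2823 (0.886%), 33 of 1913 (1.73%) and 842 of 1109 (75.9%). Scaled to 10000 UMIs per cell, 71.9% of colon SEMFs and 96.5% of small intestinal SEMFs lay above the 95th percentile of the CD81- FBs of their own library. That was 795 of 1105 and 1070 of 1109 cells. Pdgfra was at 0 UMIs in 20 colon SEMFs and in 4 small intestinal SEMFs.

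**Figure D2:**
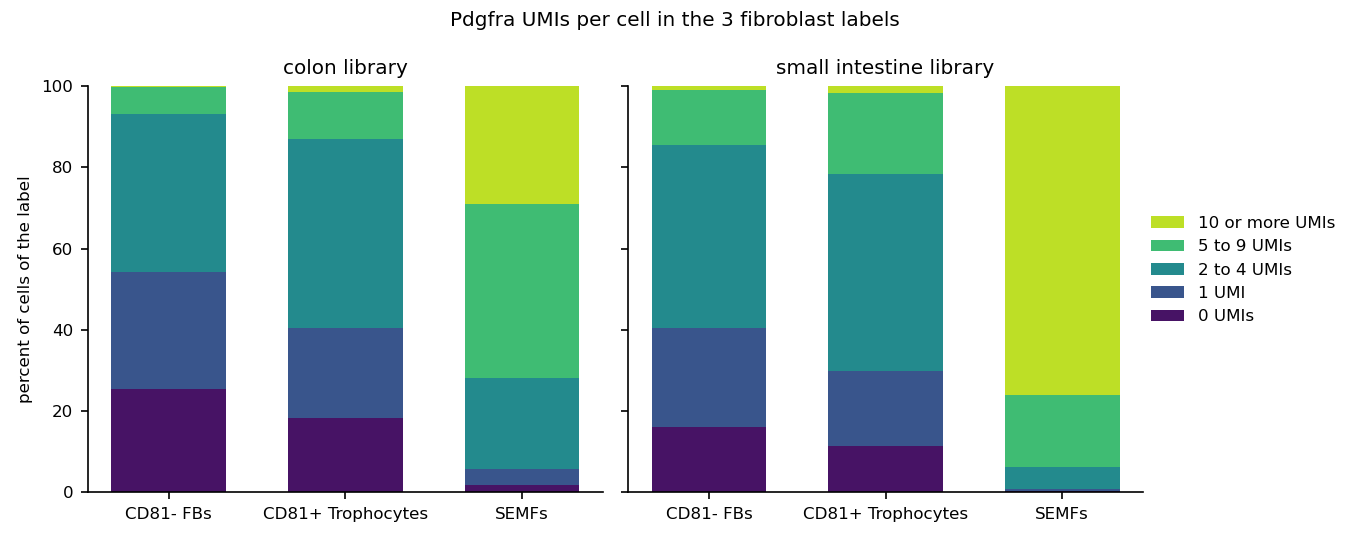
Pdgfra UMIs per cell in the 3 fibroblast labels. Each bar is all cells of a label in 1 library (vertical axis, percent of cells), split by the number of Pdgfra UMIs. SEMFs with 10 or more UMIs make up 29.1% of the colon label and 75.9% of the small intestinal label.

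Within the SEMF label, cells above the median Pdgfra share of their UMIs were set beside the rest (552 against 553 colon cells, 554 against 555 small intestinal cells). Sox6, a transcription factor, stood at 1632 against 1290 CPM in the colon and at 3763 against 3294 CPM in the small intestine. Bmp7, a secreted bone morphogenetic protein and another marker of the label, stood at 207 against 171 CPM and at 333 against 282 CPM. Not every marker did so. In the colon, F3 stood at 635 against 625 CPM and Foxl1 at 70.8 against 61.7 CPM, both with overlapping intervals. In the small intestine, Bmp5 was level (1542 against 1536 CPM) and Foxl1 stood at 11.2 against 17.1 CPM with overlapping intervals. Pdgfrb stood at 102 against 102 CPM (colon) and 135 against 114 CPM (small intestine), with overlapping counting intervals. Pdgfd was level in the colon (69.5 against 69.3 CPM) and lower in the Pdgfra-high cells of the small intestine (67.4 against 105 CPM).

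Outside the fibroblasts, Pdgfra was low in the endothelial labels. In colon LECs it stood at 52.6 CPM, 12% of the fibroblast level (9.04 to 15.6). In small intestinal LECs it stood at 20.3 CPM, 2.76% of that level (2.41 to 3.14). Both lay just above the range of the matrix genes. BECs stood at 12.7% (7.09 to 20.9) and 1.06% (0.615 to 1.69) of the fibroblast level, below the range of their label. Each of these intervals overlapped the range of its label. A Pdgfra UMI was found in 9.22% of 217 colon LECs (median depth 4545 UMIs per cell) and 74.5% of colon CD81- FBs (median depth 6697). The small intestinal shares were 3.08% of 2498 LECs (median depth 4118) and 84.0% of CD81- FBs (median depth 6977). A few cells held much of the LEC signal, since 1 colon cell had 13 of the 56 UMIs and 7 small intestinal cells had 10 or more each. Of the 20 colon LECs with a Pdgfra UMI, 9 also held a Pdgfrb UMI.

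In the SMC label Pdgfra stood at 59.6 CPM for the colon (46 UMIs in 13 of 125 cells) and at 125 CPM for the small intestine (352 UMIs in 157 of 468 cells). That was 13.6% (9.93 to 18.1) and 17.1% (15.3 to 19.0) of the fibroblast level. Both lay below the lowest matrix gene of the SMC label (17.6% and 27.2%), which the colon interval reached. A single colon cell held 17 of the 46 UMIs. The 157 small intestinal SMCs with a Pdgfra UMI held less of the contractile genes than the other 311: Myh11, the smooth muscle myosin heavy chain, stood at 949 against 1981 CPM, and Cnn1, calponin, at 129 against 586 CPM. They held more Cd34 (222 against 72.9 CPM) and Grem1 (225 against 117 CPM), markers used here for trophocytes. The CD81- FB markers were mixed, with Cxcl12 at 757 against 472 CPM and Ccl11 at 1414 against 2828 CPM. Adamdec1 stood at 9034 against 9336 CPM with overlapping intervals. In the colon the 13 cells with a Pdgfra UMI held Sox6 at 524 against 23.6 CPM in the other 112, and Bmp5 at 699 against 266 CPM. Foxl1 (43.7 against 36.2 CPM) and Ccl11 (50.9 against 101 CPM) had overlapping intervals there. These genes were chosen after earlier values had been seen, and the part of doublets of muscle and fibroblast in them was not tested.

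Pdgfrb, the beta receptor, was spread more evenly over the fibroblasts. In the colon it was highest in CD81- FBs (116 CPM, 112 to 120), then SEMFs (102 CPM, 94.9 to 110) and CD81+ Trophocytes (81.0 CPM, 74.2 to 88.3). The small intestinal order began with SEMFs (124 CPM, 116 to 133), then CD81- FBs (95.6 CPM, 91.3 to 99.9), SMCs (73.8 CPM, 64.1 to 84.5) and CD81+ Trophocytes (58.2 CPM, 54.4 to 62.1). Trophocytes were lowest of the 3 fibroblast labels in both libraries, and the order of the other 2 differed between the libraries. The log2 ratio of SEMFs to CD81- FBs was -0.19 in the colon (-0.30 to -0.07) and 0.38 in the small intestine (0.26 to 0.50). In colon cells with Xist and no Y-linked UMIs it was -0.059, from 103 CPM (92.8 to 114) and 107 CPM (101 to 113), which overlapped. Colon SMCs stood at 55.7 CPM, with an interval (40.3 to 75) that overlapped those of trophocytes and BECs.

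In the endothelial labels of the small intestine Pdgfrb was close to 0, at 2.59 CPM in LECs (29 UMIs in 2498 cells) and 2.74 CPM in BECs (6 UMIs in 524 cells). Both values were about 3% of the fibroblast level (2.99% and 3.16%). In the colon LECs stood at 20.7 CPM (19.2% of the fibroblast level) and BECs at 40.8 CPM (37.9%). In the BECs 1 colon cell held 7 of the 11 UMIs. The 8 cells labelled pericytes, present in the colon alone, held 10 Pdgfrb UMIs in 6 cells, or 288 CPM (138 to 530). Rgs5, a pericyte marker, stood at 2278 CPM in those cells, and in the small intestine, which has no pericyte label, at 1188 CPM in SMCs and 157 CPM in SEMFs. Notch3, another, stood at 548 CPM in the pericytes and at 7.48 and 1.07 CPM in the same small intestinal labels. Summed over all 6 pericyte markers, small intestinal SMCs stood at 1224 CPM, SEMFs at 1139 CPM and CD81- FBs at 783 CPM. In SEMFs most of that sum came from the other markers.

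In the larger fibroblast labels, the share of cells with one receptor was close in cells with and without the other once depth was evened. With each cell thinned to 3000 UMIs, the expected share with a Pdgfrb UMI in colon CD81- FBs was 29.1% of Pdgfra-positive and 27.2% of Pdgfra-negative cells. The same shares were 21.3% and 20.3% in colon trophocytes. The small intestinal shares were 25.3% and 23.6% in CD81- FBs and 16.4% and 15.6% in trophocytes. SEMFs stood at 25.4% and 27.2% (colon) and at 31.6% and 23.6% (small intestine). After thinning, 94.0% and 99.5% of SEMFs were expected to hold a Pdgfra UMI, so the negative side was small. At full depth 20 and 4 SEMFs held none. At full depth, both receptors were detected in 1401 of 3631 colon CD81- FBs and 1111 of 2823 small intestinal CD81- FBs.

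Pdgfa, a ligand of the alpha receptor, was read at a low level in every label, with SMCs first in the colon and LECs and SMCs first in the small intestine. In the colon SMCs stood at 47.9 CPM (33.7 to 66.0), apart from LECs at 22.5 CPM and SEMFs at 20.2 CPM. The other colon labels lay between 11.8 and 14.8 CPM, and their intervals overlapped. Small intestinal LECs stood at 38.3 CPM (34.7 to 42.1) and SMCs there at 36.3 CPM (29.6 to 44.1), which did not differ beyond counting error. The remaining labels lay between 11.7 CPM in SEMFs and 17.2 CPM in CD81+ Trophocytes. SMCs held 3.35-fold (colon) and 2.21-fold (small intestine) the Pdgfa level of CD81- FBs. LECs stood at 240% of the pooled fibroblast level in the small intestine (212 to 271) and at 150% in the colon, where the interval held equality (95.4 to 226). A Pdgfa UMI was found in 11.5% of small intestinal LECs, of which 4 cells held 10 or more UMIs and 1 held 18 of the 429.

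Pdgfb, the ligand known for pericyte recruitment, was highest in BECs, which gave 78.1% of its colon UMIs and 67.3% of its small intestinal UMIs, with LECs next at 12.3% and 31.5%. BECs held 57 UMIs in 27 of 53 colon cells (211 CPM, 160 to 274) and 267 UMIs in 182 of 524 small intestinal cells (122 CPM, 108 to 137). The colon LECs held 8.45 CPM (3.86 to 16.0) and the small intestinal LECs 11.2 CPM (9.28 to 13.3). All 5611 colon fibroblasts together held 5 Pdgfb UMIs, and all 5845 small intestinal fibroblasts held 5. No Pdgfb UMI was seen in 125 colon SMCs or 468 small intestinal SMCs, where the intervals for the share of cells with a UMI reached 2.91% and 0.785%. A Pdgfb UMI was found in 50.9% of colon BECs and 34.7% of small intestinal BECs, against 0.0551% and 0.0708% of CD81- FBs, where the median depth was higher (6697 and 6977 against 3821 and 3652 UMIs).

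Among small intestinal BECs, the cells with and without a Pdgfb UMI differed in vein and capillary genes, which were chosen after earlier values had been seen. Selp, an adhesion molecule of venules, stood at 1439 CPM in the 182 positive cells (1355 to 1526) and 3186 CPM in the 342 negative cells (3094 to 3280). Ackr1, another venular gene, stood at 300 against 622 CPM. Kdr, the main receptor for vascular endothelial growth factor, stood at 649 against 329 CPM, and Flt1, a related receptor, at 1941 against 1386 CPM. Other endothelial genes were lower or close, with Ptprb at 1451 against 1695 CPM and Plvap at 2475 against 2630 CPM. In the colon, Selp stood at 38.9 CPM in the 27 positive cells and 156 CPM in the 26 negative cells. Kdr stood there at 1111 against 745 CPM, but Ackr1 at 85.5 against 56.8 CPM, with overlapping intervals. Other endothelial genes were also higher in the positive colon cells, with Flt1 at 3194 against 2057 CPM, Ptprb at 979 against 631 CPM and Emcn at 932 against 475 CPM. Plvap, Esam and Cdh5 had overlapping intervals.

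Pdgfc, the other alpha receptor ligand, was highest in SMCs in both libraries. Colon SMCs stood at 216 CPM (185 to 252) with a UMI in 78 of 125 cells, and small intestinal SMCs at 130 CPM (117 to 144) with a UMI in 175 of 468 cells. In the colon no other label passed 4.55 CPM, the level of CD81+ Trophocytes (3.05 to 6.54). Small intestinal CD81+ Trophocytes stood at 75.9 CPM (71.6 to 80.5), with a UMI in 520 of 1913 cells, and gave 68.4% of all Pdgfc UMIs of the library. CD81- FBs stood at 1.66 CPM (colon) and 6.95 CPM (small intestine). SEMFs held 20 Pdgfc UMIs (2.69 CPM) and 2 Pdgfc UMIs (0.307 CPM) in that order. No Pdgfc UMI was seen in 217 colon LECs, where the interval for the share of cells with a UMI reached 1.69%. The 175 small intestinal SMCs with a Pdgfc UMI held more of the contractile genes than the other 293, with Myh11 at 2155 against 1184 CPM and Cnn1 at 633 against 252 CPM. In the colon the contractile genes were mixed: Myh11 stood at 3175 CPM in the 78 cells with a Pdgfc UMI against 2214 CPM in the other 47, Acta2 at 9390 against 10205 CPM, and Actg2 at 1550 against 1625 CPM with overlapping intervals.

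Some of the small Pdgfc signal of colon CD81- FBs sat in cells that also held a UMI of Acta2, smooth muscle actin. Acta2 was not particular to the SMC label, as 897 of 1105 colon SEMFs held a UMI of it. Of the 41 Pdgfc UMIs of colon CD81- FBs, 18 were in the 3039 cells with no Acta2 UMI. Without the cells that held one, the level was 0.878 CPM (0.520 to 1.39). In small intestinal CD81- FBs the same restriction raised the level from 6.95 to 8.97 CPM (7.30 to 10.9). In trophocytes the same restriction left 4.37 CPM (colon) and 76.5 CPM (small intestine), close to the levels over all cells.

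Within small intestinal CD81+ Trophocytes, Pdgfc went with a part of the label that was low in Pi16. Pi16, a marker of adventitial fibroblasts, stood at 39.2 CPM (33.5 to 45.5) in the 520 cells with a Pdgfc UMI and 212 CPM (203 to 221) in the 1393 cells without. Grem1, a secreted inhibitor of bone morphogenetic proteins, stood at 1719 against 1130 CPM, and the chemokine Cxcl12 at 811 against 560 CPM. Cd81 itself (598 against 545 CPM) and Ackr4 (651 against 604 CPM) were closer, and Cd34 was lower (459 against 577 CPM). Thinned to 3000 UMIs per cell, a Pi16 UMI was expected in 6.87% of Pdgfc-positive and 24.1% of Pdgfc-negative cells. The 21 colon trophocytes with a Pdgfc UMI also had less Pi16 (111 against 297 CPM) and more Grem1 (1300 against 550 CPM) than the other 854, and less Cd81 (430 against 590 CPM). Acta2 stood at 551 against 23.3 CPM there, and 3 of the 21 cells held an Acta2 UMI. Cells were split by 1 detected UMI, so part of the cells without one may express the gene below detection.

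**Figure D3:**
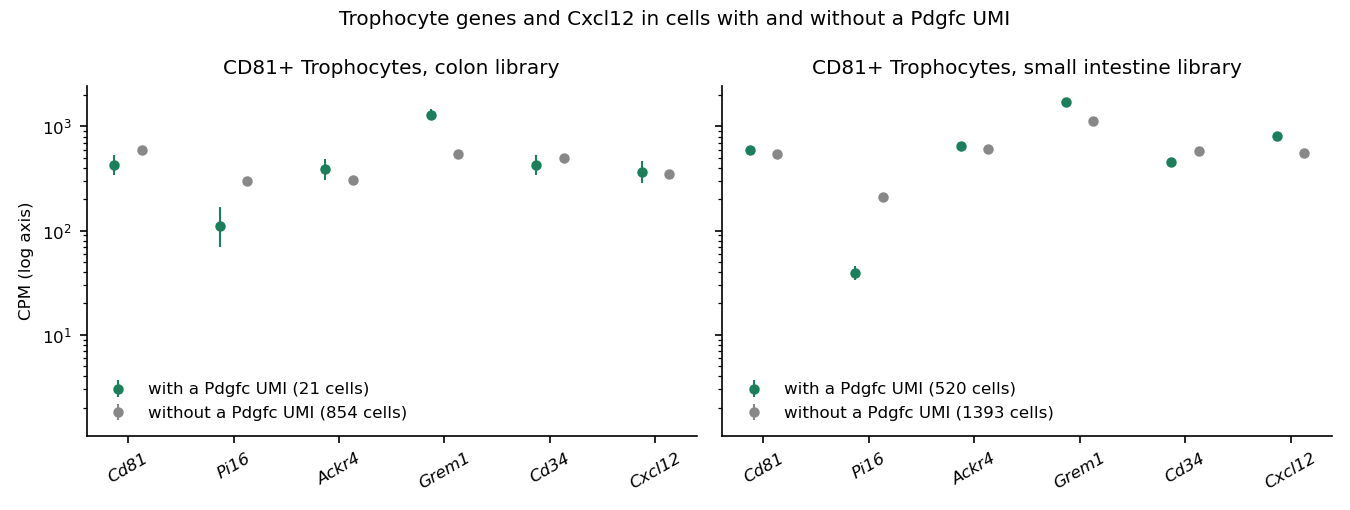
Trophocyte genes and Cxcl12 in CD81+ Trophocytes with a Pdgfc UMI (green) and without one (grey), for the colon (left) and the small intestine (right). Points are CPM on a log axis and bars are exact Poisson 95% intervals. Pi16 is lower and Grem1 higher in the cells with a Pdgfc UMI in both panels.

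Pdgfd, a ligand of the beta receptor, was read in every label, and its leading label differed between the libraries. In the colon CD81- FBs (141 CPM, 136 to 145), BECs (126 CPM, 87.3 to 176) and SMCs (105 CPM, 83.3 to 130) had overlapping neighbours in the order of levels. SEMFs followed at 69.4 CPM, then CD81+ Trophocytes at 55.8 CPM and LECs at 50.7 CPM. Small intestinal BECs came first at 366 CPM (341 to 392), apart from CD81+ Trophocytes at 176 CPM (170 to 183) and CD81- FBs at 102 CPM (97.6 to 107). SMCs, SEMFs and LECs lay between 83.5 and 89.8 CPM with overlapping intervals. Relative to CD81- FBs, trophocytes stood at log2 -1.33 in the colon (-1.50 to -1.18) and 0.79 in the small intestine (0.71 to 0.88).

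Pdgfd in the endothelial labels stood at a larger share of the fibroblast level than the matrix genes did. LECs stood at 44.9% of the fibroblast level in the colon and 66.0% in the small intestine, and BECs at 112% and 289%, against matrix genes at no more than 28.7%. The part of carried RNA in these values was not tested. Among small intestinal BECs, Pdgfb and Pdgfd were detected together in 117 cells. Thinned to 3000 UMIs, a Pdgfd UMI was expected in 63.2% of Pdgfb-positive and 43.5% of Pdgfb-negative BECs there, and in 43.4% and 22.3% in the colon. The 4 colon cells labelled ArtECs held 10 of the 34 BEC Pdgfd UMIs, a level of 540 CPM (259 to 994), and the 45 labelled CapECs stood at 101 CPM (64.2 to 152).

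**Figure D4:**
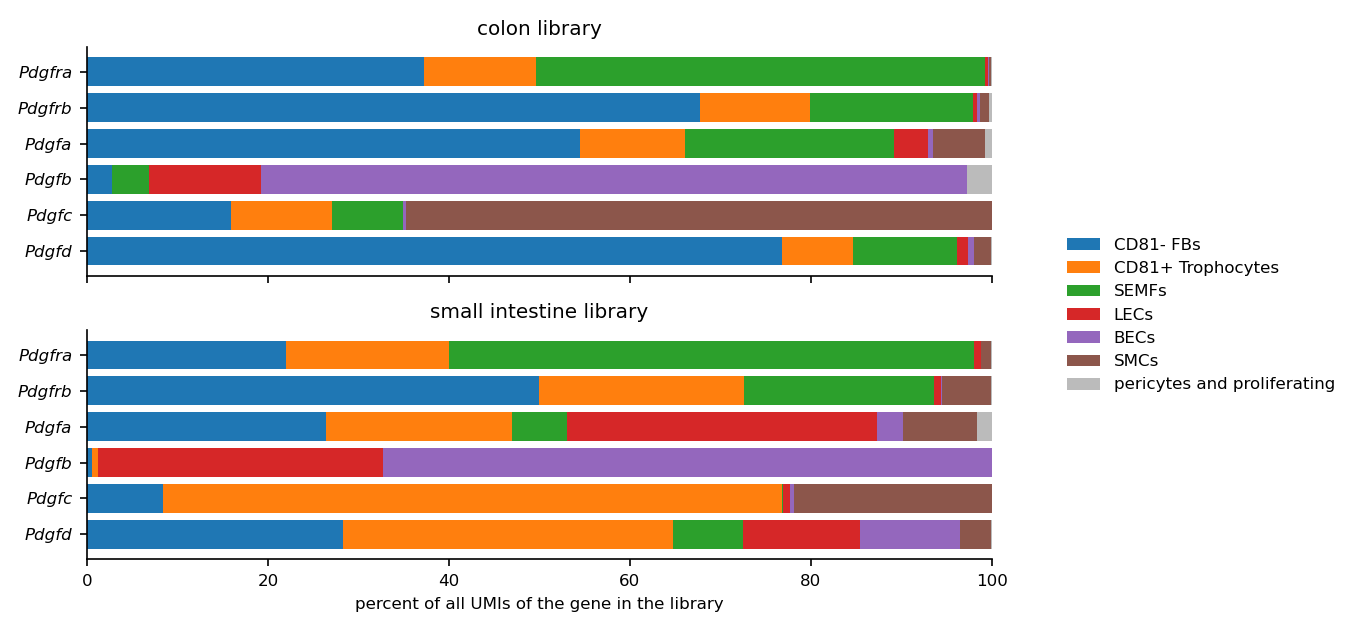
Share of each member's UMIs held by each label (horizontal axis, percent of all UMIs of the gene in the library), colon above and small intestine below. SMCs hold 64.7% of Pdgfc UMIs in the colon and 21.8% in the small intestine, where CD81+ Trophocytes hold 68.4%. Shares depend on how many cells of each label were captured.

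Between the tissues, members were compared label by label as the log2 ratio of colon to small intestine, and a ratio beyond 1 or below -1 was counted for genes whose UMIs in the 2 libraries summed to 100 or more. In the 3 fibroblast labels pooled, 5 members had that many UMIs. Of these 0 lay above 1, against 6.88% of 13307 genes, and 1 lay below -1, against 9.47%. That member was Pdgfc, at 2.34 CPM (colon) and 30.8 CPM (small intestine; log2 -3.72, interval -4.04 to -3.41). Pdgfra stood at 439 against 735 CPM (-0.74, interval -0.77 to -0.72) and Pdgfrb at 108 against 86.5 CPM (0.31, interval 0.25 to 0.38). Pdgfa did not differ beyond counting error (15.0 against 16.0 CPM, -0.09, interval -0.25 to 0.07). Pdgfd stood at 113 against 127 CPM (-0.16, interval -0.22 to -0.11). The median gene of the pooled fibroblasts lay at -0.19, and relative to it Pdgfd was at 0.02, so its direction depends on the scaling.

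In SEMFs Pdgfra was lower in the colon at log2 -1.29 (-1.33 to -1.25), and at -0.98 relative to the median gene of that label, which lay at -0.31. SEMFs had 0 of 4 members above 1 (background 5.36%) and 1 below -1 (background 15.1%). Pdgfrb in SEMFs stood at -0.28 (-0.43 to -0.14), and at 0.03 relative to the median gene. Pdgfa in SEMFs was the reverse of Pdgfra, at 20.2 CPM (colon) against 11.7 CPM (small intestine), a log2 ratio of 0.79 (0.38 to 1.21). In CD81+ Trophocytes 0 of 5 members lay above 1 (background 4.23%) and 2 below -1 (background 8.24%): Pdgfc at -4.06 (-4.64 to -3.53) and Pdgfd at -1.66 (-1.83 to -1.50). In CD81- FBs 0 of 5 lay above 1 (background 6.46%) and 1 below -1 (background 10.4%), which was Pdgfc at -2.07 (-2.60 to -1.55). Without cells holding an Acta2 UMI the Pdgfc value of CD81- FBs was -3.35, from 0.878 CPM (colon) and 8.97 CPM (small intestine). Pdgfd in CD81- FBs was higher in the colon, at 0.46 (0.39 to 0.54). The colon had more Pdgfrb than the small intestine in CD81- FBs (0.28, interval 0.20 to 0.37) and trophocytes (0.48, interval 0.32 to 0.64). Pdgfra was lower there in CD81- FBs (-0.41, interval -0.46 to -0.36) and trophocytes (-0.19, interval -0.26 to -0.12). Pdgfa was at -0.54 in trophocytes (-0.93 to -0.17), and in CD81- FBs its interval held 0 (-0.43 to 0.02).

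**Figure D5:**
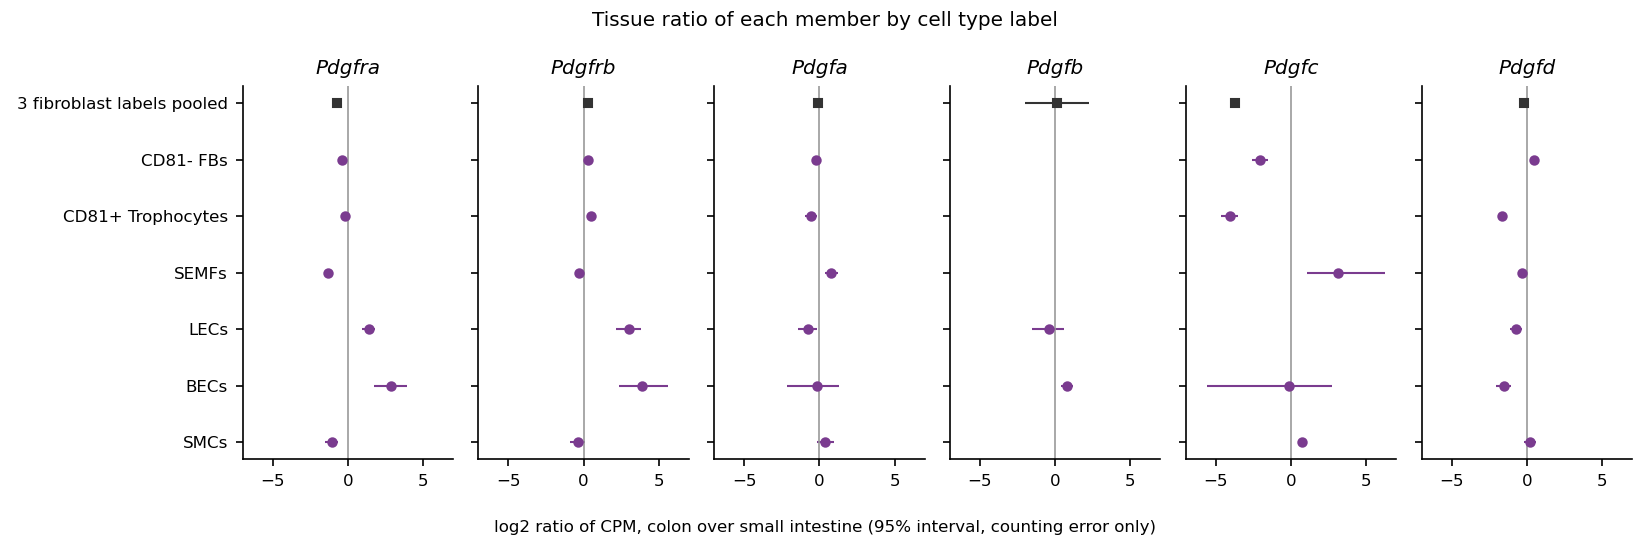
Log2 ratio of colon to small intestine for each member (panels) in the pooled fibroblasts (square) and each label (circles). Horizontal bars are 95% intervals for counting error, the grey line marks equal levels, and labels with 0 UMIs in a library, or at most 3 in each, are left out. Pdgfc lies at -4.06 in CD81+ Trophocytes and 0.74 in SMCs, and Pdgfd at -1.66 in CD81+ Trophocytes and 0.46 in CD81- FBs.

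In BECs 0 of 2 members lay above 1 (background 3.1%) and 1 below -1 (background 19.6%), Pdgfd at -1.54 (-2.08 to -1.04). Pdgfb was higher in colon BECs, at 0.80 (0.36 to 1.21). The label held unlike cells in the 2 libraries: 45 of 53 colon BECs were CapECs, and Selp stood at 38.9 and 156 CPM in colon BECs with and without a Pdgfb UMI, against 1439 and 3186 CPM in the small intestine. The part of this makeup in the Pdgfb and Pdgfd ratios was not tested. The colon BECs were 53 cells, and summed immune markers stood at 108 CPM there against 0.456 CPM in small intestinal BECs; their part in the result was not tested. In SMCs 0 of 5 lay above 1 (background 3.37%) and 1 below -1 (background 17.3%), Pdgfra at -1.07 (-1.55 to -0.63). Without the 6% of SMCs with the most UMIs this Pdgfra ratio was -2.99, and without the 1 cell with the most Pdgfra UMIs it was -1.65. Pdgfc in SMCs was higher in the colon, at 0.74 (0.46 to 1.01), opposite in sign to trophocytes. In the SMC label, summed smooth muscle markers stood at 22182 CPM (colon) and 14808 CPM (small intestine). Summed CD81- FB markers stood there at 1624 and 12047 CPM. The part of this makeup in the SMC ratios was not tested. In LECs 1 of 4 lay above 1 (background 3.45%), Pdgfra at 1.38 (0.93 to 1.80), and 0 below -1 (background 15.4%). The matrix genes stood at 8.65% or more of the fibroblast level in colon LECs and 2.67% or less in small intestinal LECs, and the part of carried RNA in that ratio was not tested. Pdgfa and Pdgfd in LECs were lower in the colon, at -0.76 (-1.42 to -0.17) and -0.72 (-1.14 to -0.32). The Pdgfd ratio was -0.13 with the 53 colon LECs that held Y-linked and no Xist UMIs (76.4 CPM, 46.0 to 119, beside 83.5 CPM) and -1.94 with the 98 of the reverse kind (21.7 CPM, 10.9 to 38.9). Pdgfra in LECs was 2.19 and 0.89 under the same limits. Pdgfrb, with 22 and 29 UMIs in LECs and 11 and 6 in BECs, was too sparse to be counted and stood at 2.997 (2.13 to 3.85) and 3.90 (2.34 to 5.62). Intervals held 0 for Pdgfb in LECs (-1.56 to 0.57), Pdgfa in BECs (-2.14 to 1.29), and Pdgfrb, Pdgfa and Pdgfd in SMCs.

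Of 10 listed partners and processing factors of PDGF ligands, 9 had enough UMIs in the pooled fibroblasts, and 1 lay above 1 and 4 below -1, with a median of -0.49 beside -0.17 over all genes tested, of which 6.88% lay above and 9.47% below. The list was chosen with earlier results known. The gene above was Plau, urokinase, at 17.9 CPM (colon) and 1.01 CPM (small intestine; log2 4.15, interval 3.70 to 4.63). Its colon level was 72.1 CPM in SEMFs and 3.93 CPM in CD81- FBs. Pdgfrl, a gene named for its likeness to the PDGF receptors, stood at 4.26 against 21.3 CPM (-2.32). Pcsk5, a proprotein convertase, stood at 388 against 904 CPM (-1.22). Cspg4, a proteoglycan also called NG2 that binds PDGF-AA, stood at 17.9 against 37.3 CPM (-1.06), and Sparc, a matrix protein that binds PDGF-B, at 2169 against 4471 CPM (-1.04). Of the 2 last genes, each lay above -1 once the median gene was subtracted (-0.87 and -0.86). Plat, the protease that activates PDGF-C, stood at 88.3 against 74.9 CPM (0.24), and in trophocytes at 225 against 102 CPM, where Pdgfc was lower in the colon. Furin, the convertase that processes PDGF-A and PDGF-B, stood at 38.7 against 31.0 CPM (0.32). Nrp1, a co-receptor, stood at 192 against 244 CPM (-0.34), and Lrp1, an endocytic receptor that associates with the beta receptor, at 353 against 494 CPM (-0.49). By label, the median of the list was -1.05 in SEMFs, -0.34 in CD81- FBs and -0.15 in trophocytes. Over all genes tested it was -0.33, -0.22 and -0.11 in that order. In LECs, BECs and SMCs the list stood at 0.73, 0.07 and -1.18, beside -0.27, -0.30 and -0.27.

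Of 18 relays that carry the signal inside the cell, all with enough UMIs, 0 lay beyond either limit in the pooled fibroblasts. The background was 6.88% above 1 and 9.47% below -1. The median of the relays was -0.33, beside -0.17 over all genes tested. Ptpn11, the phosphatase SHP2 that binds both receptors, stood at 59.4 against 63.1 CPM (-0.09). Of 10 brakes, 0 lay above 1 (background 6.88%) and 1 below -1 (background 9.47%), which is near the background. That gene was Cblb, a ubiquitin ligase, at 66.4 against 210 CPM (-1.66). Of 8 genes that growth factors induce within minutes to hours, 0 lay beyond either limit in the pooled fibroblasts. Their median was 0.33, beside -0.17 over all genes tested. In SEMFs 4 lay above 1 (background 5.36%) and 1 below -1 (background 15.1%), with a median of 1.24 beside -0.33. The endothelial labels went the other way, with 0 of 6 above and 4 below in LECs (median -1.37, background 3.45% and 15.4%) and 0 of 4 above and 2 below in BECs (median -1.06, background 3.1% and 19.6%). Digestion ran 60 minutes for the colon and 45 minutes for the small intestine, and tissue and digestion time cannot be told apart in these genes. Of the related receptors Kit, Csf1r and Flt3, 2 were listed for both libraries and 0 had enough UMIs in the fibroblasts.

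The 12 points given by 6 labels in 2 libraries share library and depth, and all held RNA of fibroblast matrix genes. Over them, the pattern of Pdgfra was most like those of Fam110b (Pearson r of log2(CPM + 10) 0.98), Nbl1 (0.98), Ptgis (0.96) and Chrd (0.96). All 4 of these were also highest in small intestinal SEMFs, among them Nbl1 at 1923 CPM and Chrd, which encodes the secreted inhibitor chordin, at 141 CPM. For Pdgfrb the nearest genes were Efemp1, Mxra8, C1qtnf2 and Crispld2 (0.97 to 0.98). For Pdgfb they were Notch4, Jag2, Tcf15 and Adgrg1 (0.99 to 1.00), with Notch4, a Notch receptor of endothelium, at 51.9 CPM in colon BECs and 42.0 CPM in small intestinal BECs. For Pdgfc they included Sntg2, Bmpr1b and Ctnna3 (0.91 to 0.94). For Pdgfa they were Cnst, Inpp4b, Coro1c and Cox6a1 (0.89 to 0.91), and for Pdgfd Bace2, Rapgef6, Dnm3 and Mrtfb (0.82 to 0.86). Among the members themselves, the receptors were the closest pair (0.85), and each receptor ran against Pdgfb (-0.61 and -0.60).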

How the data were processed

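Counts of UMIs per gene and cell were deposited by the authors for each library and were used for all main values. A second deposited table held natural log values. Recomputed from the counts, scaled to 10000 UMIs in each cell with 1 added, these differed by at most 5.3e-15. The deposited metadata gave a label per cell, and the method behind the labels is not given in the sources used here. Per the submitters' processing notes, Cell Ranger 7.1.0, Seurat 4 and mm10 were used. Spellings of the SEMF label were joined, and the colon's CapECs, ArtECs and VenECs were pooled as BECs, the label of the small intestine.

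UMIs were summed per label and library. Levels carry exact Poisson intervals, shares of cells exact Clopper-Pearson intervals, and ratios exact conditional binomial intervals, all at 95%. A count of 0 stands at 3 counts in drawn levels and in ratios. PCR copies are collapsed by UMIs, and intervals cover counting error only. Overlap of the intervals of separate levels does not show that the levels are equal. The comparison kept labels that had 50 or more cells in the colon and in the small intestine, and background counts kept genes whose UMIs summed to 100 or more over the libraries. Thinned shares are expected values at 3000 UMIs per cell, with shallower cells left out. No doublet caller was run, and the main values used all cells. The 6% of cells with the most UMIs were left out only in an alternative for the log2 ratios. Splits of a label and shares of cells were not repeated without them. Alternatives were another averaging, other totals, deep cells or single cells left out, colon cells split by Xist and Y-linked UMIs, and the median gene subtracted. Leaving out shared barcodes and cells with an Acta2 UMI was chosen after seeing the data.

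The members, marker lists and pathway lists were chosen with earlier results of these data known. All members were named in every label. Pathway genes were named when beyond 1 or below -1 in pooled fibroblasts (at most 4 per direction and list), with Nrp1, Lrp1, Plat, Furin and Ptpn11 always. The 4 genes with the highest correlation were named per member, out of 6083 genes with at least 50 CPM at any point, except 1 gene that is not reported here. Genes compared within splits of a label were marker genes, members, and vessel genes chosen after earlier results of these data. Counts were simulated as Poisson draws for 13307 genes of the pooled fibroblasts, with 200 changed. The intervals held the true ratio for 97.5% of changed and 95.3% of unchanged genes. For 4221 genes of BECs the shares were 96.5% and 96.2%. The draws had no spread between cells or libraries, so this coverage checks the formula and not its fit to these data. Python 3.11.15 was used with numpy 2.4.6, scipy 1.17.1, pandas 2.3.3 and matplotlib 3.10.9.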

Additional observations from a re-analysis of the deposited data

Results flagged for a closer look

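Pdgfc and Pdgfra differed between the libraries in opposite directions in different labels, and these differences between labels were not tested. The log2 ratio of colon to small intestine of Pdgfc was 3.13 in SEMFs, from 20 and 2 UMIs, against -2.07 in CD81- FBs and -4.06 in CD81+ Trophocytes. That of Pdgfra was 1.38 in LECs and 2.84 in BECs, from 15 and 17 UMIs in BECs (0.61 without the 6% of cells with the most UMIs), against -1.29 in SEMFs and -1.07 in SMCs. Beside the endothelial values stand those of the fibroblast matrix genes, which held a median of 9.91% of the fibroblast level in colon LECs and 23.3% in colon BECs, and 2.58% and 1.30% in the small intestine.

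A few cells outside the compared labels held more of a member than any compared label of their library. The 8 colon pericytes held Pdgfrb at 288 CPM, Pdgfa at 144 CPM (5 UMIs) and Pdgfd at 173 CPM (6 UMIs). The 4 colon cells labelled proliferating held Pdgfrb at 163 CPM (5 UMIs). The 24 proliferating cells of the small intestine held Pdgfa at 95.6 CPM, with 13 of 21 UMIs in 1 cell.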

How the results depend on the processing

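No paired analysis was possible because each tissue has 1 library. Of 355 alternative values for 41 log2 ratios, 302 stayed within the counting interval of the reported value, 51 lay outside it with the sign unchanged or with a reported interval that spans 0, and 2 had the opposite sign. Those 2 came from subtracting the median gene: Pdgfd in pooled fibroblasts moved to 0.022 and Pdgfrb in SEMFs to 0.029. In pooled fibroblasts, Pdgfra moved to -0.91 as a mean over cells, -0.70 without mitochondrial and ribosomal protein genes in the total, -1.02 with the 3 labels weighted equally and -0.56 with the median gene subtracted. Equal weights also moved Pdgfrb to 0.11, Pdgfc to -3.22 and Pdgfd to -0.46, and subtracting the median gene moved Pdgfrb to 0.50 and Pdgfa to 0.097. With colon cells limited to those with Y-linked and no Xist UMIs, Pdgfra was -0.81, Pdgfrb 0.38, Pdgfc -3.30 and Pdgfd -0.013, and with the reverse limit -0.64, 0.25, -4.19 and -0.30. The colon ratio of SEMFs to CD81- FBs under those limits was 2.28 and 2.07 for Pdgfra and -0.34 and -0.059 for Pdgfrb. The small intestinal Pdgfra ratio was 2.96 without mitochondrial and ribosomal protein genes. Leaving out barcodes found in both libraries kept 37 of 37 ratios within their interval. The cause of these moves was not tested. Ratios in BECs rest on 53 colon cells, and Pdgfra there was 0.61 without the 6% of cells with the most UMIs. Thinning to 3000 UMIs moved 48 of 72 shares of positive cells outside their interval, as fewer UMIs are counted.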
